A study of Rattus norvegicus with 32 samples.

Results

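A set of 10 genes of fatty acid synthesis and desaturation was chosen by name (Acly, Me1, Acaca, Acacb, Fasn, Elovl6, Elovl5, Fads2, Fads1 and Pnpla3) and followed in 4 tissues of lactating rats. Of these 10, 9 had a row in the deposited table of 19434 transcript clusters, each with a single cluster, and Fasn was the member without a row. Total RNA was hybridised to the Affymetrix Rat Exon 1.0 ST array, on which a transcript cluster is the set of probes assigned to 1 gene. The lactating group held 16 Sprague-Dawley dams at day 10 to 11 of lactation, and the control group 16 virgin females of comparable age. All rats were killed at hour 16, with free access to food. Each pool combined RNA of 4 rats, and a given pool held the same animals in every tissue. Lactating and control liver, duodenum, jejunum and ileum thus form 8 groups of 4 pools and 32 arrays. The intestinal RNA came from scrapes of the mucosal layer, which the labels call homogenates. Since the control rats were virgins, lactation and the pregnancy before it cannot be told apart.

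Fatty acid synthesis starts from citrate, which is split into cytosolic acetyl-CoA, carboxylated to malonyl-CoA and built into palmitate with reducing power from NADPH. Elongases then lengthen the chain and desaturases insert double bonds, and the same 2 kinds of enzyme turn dietary essential fatty acids into longer polyunsaturated ones. In the liver the pathway is known to follow insulin and carbohydrate supply through the transcription factors SREBP and ChREBP, and its products are exported as triglyceride.

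The tissue labels were checked against marker genes. The mean level of 8 hepatocyte markers lay between 13.05 and 13.26 in liver pools and between 4.55 and 5.41 in intestinal pools, and that of 6 enterocyte markers was between 10.59 and 13.14 in the intestine and between 4.95 and 5.56 in the liver. All levels are log2 values from the RMA summary, with array medians of 4.68 to 4.87, so that a difference of 1 is a change of 2-fold. Levels are compared here only within a gene, because each cluster has its own probes. Differences are lactating minus control with the standard error after ±, from a limma model of all 8 groups, and a gene was called where its Benjamini-Hochberg adjusted p over the 19434 clusters was under 0.05. Whether a difference came from the share of a cell type in the tissue or from the RNA per cell cannot be told apart in bulk RNA. A second fit that pairs pools of the same number was also made, and its p is given where it changes a call of a member, with its counts beside those of the gene lists.

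Few of these genes were called, Pnpla3 and Elovl6 in the liver and Fads1 in the duodenum and ileum. In the liver 2 of the 9 members were called, both higher, while 1.88% of all clusters were called there (0.715% higher and 1.17% lower). Pnpla3 was 5.06-fold and Elovl6 3.33-fold higher in lactating liver. In the duodenum 1 of 9 was called, against 0.643% of all clusters, and in the ileum 1 of 9, against 1.28%. In both segments it was Fads1, which was 1.62-fold higher in lactating duodenum and 1.64-fold higher in lactating ileum. No member was called in the jejunum by limma, where 0.808% of all clusters were called. At an unadjusted p under 0.05 the jejunal count was 1 by limma, against 11.1% of all clusters, and 0 by the mixed model of the study's methods, against 10.9%. The 9 members had a median difference of 0.40 in liver (0.01 over all clusters), 0.33 in duodenum (0.04), 0.03 in jejunum (0.01) and 0.24 in ileum (0.02).

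**Figure D1:**
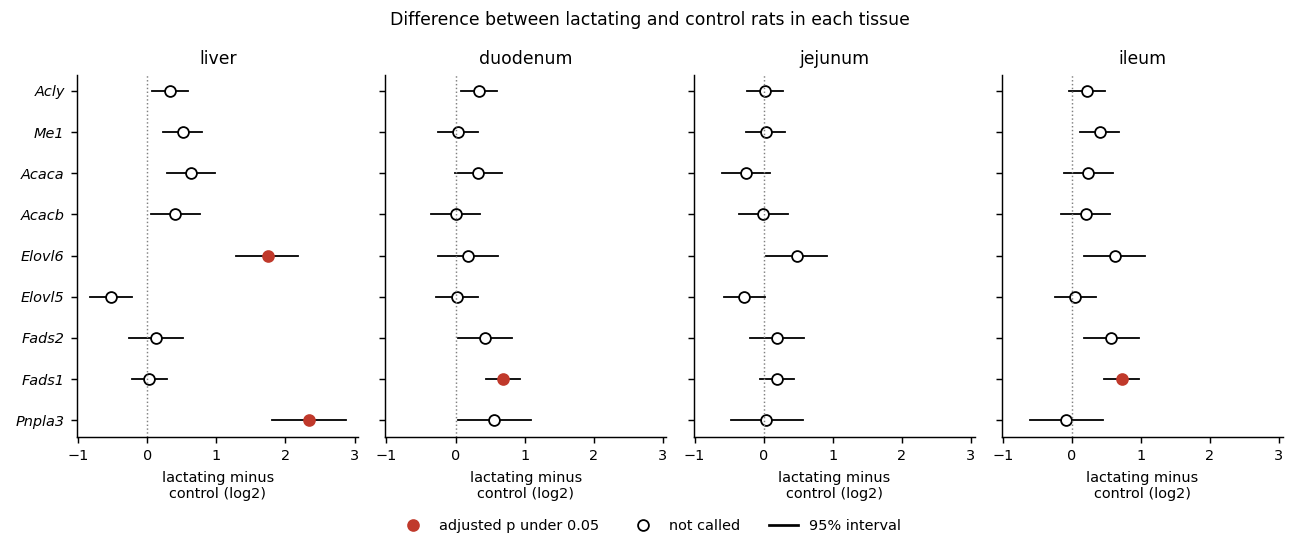
Difference between lactating and control pools (log2, horizontal axis) of the 9 members (rows) in the 4 tissues (panels), with the 95% interval of the limma fit as a line and called members as filled points. Elovl6 (1.74) and Pnpla3 (2.34) stand far to the right in the liver, and Fads1 is the filled point in the duodenum (0.69) and in the ileum (0.72).

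The number of liver calls depended on the fit. With pools of the same number paired, 6 members were called in the liver, 5 higher (Pnpla3, Elovl6, Acaca, Me1 and Acly) and 1 lower (Elovl5), against 4.13% of all clusters in that fit. The paired fit called 2 members in the ileum, Fads1 and Elovl6, against 3.78% of all clusters. In the liver, the 4 lactating and 4 control pools did not overlap for 4 members, of which Pnpla3, Elovl6 and Fads2 were higher in lactating pools and Elovl5 was lower, against 5.21% of all clusters with pools apart in either direction. The share for the intestinal segments is not given here, so pools apart in them are a description only. Lactating pool 1 had the lowest hepatic level of 8 of the 9 members among the lactating pools, and control pool 1 that of 6 of the 9 among the control pools.

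Pnpla3 encodes a lipid droplet protein of the patatin-like phospholipase family, known from the mouse liver as a target of SREBP and ChREBP. Its cluster (7319398) read 10.99, 11.74, 11.72 and 11.06 in lactating liver pools 1 to 4, against 8.10, 8.99, 10.22 and 8.85 in control liver pools 1 to 4. The lowest lactating pool lay above the highest control pool, and control pool 3 stood above the other control pools. The difference was 2.34 ± 0.26 (adjusted p = 9.97e-07), and it lay between 2.03 and 2.73 when each pool was left out in turn. The SD among liver pools was 0.41 in lactating and 0.88 in control rats, against 0.13 to 0.23 in the intestinal groups. The standard error and p above use the spread over all tissues and do not measure the hepatic spread alone. A fit to the liver arrays alone gave the same difference with a standard error of 0.40 (adjusted p = 0.0665).

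In the intestine Pnpla3 was much lower. Levels in the duodenum were 6.09 ± 0.23 in lactating and 5.53 ± 0.20 in control pools (SD, n = 4 each), and the difference of 0.56 ± 0.26 was not called (adjusted p = 0.513), although the lactating pools (5.85 to 6.39) lay above the control pools (5.30 to 5.70). In the jejunum and ileum the pools ran from 4.31 to 4.94 in lactating and from 4.39 to 4.80 in control rats, at about the median of the arrays. The liver exceeded the mean of the 3 segments by 6.28 in lactating and by 4.12 in control rats. The order of levels in both states was liver, duodenum, jejunum, ileum, of which jejunum and ileum were not shown to differ in lactating (adjusted p = 0.553) or in control rats (adjusted p = 0.84).

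The region around the Pnpla3 transcription start is shown because this gene had the largest hepatic difference of the 9. It covers chr7:117173278-117173577 on the + strand of GRCr8, 250 bases before to 50 bases after the start in RefSeq, and the capitals mark matches to the CCAAT box bound by NF-Y, here both on the opposite strand.
Pnpla3: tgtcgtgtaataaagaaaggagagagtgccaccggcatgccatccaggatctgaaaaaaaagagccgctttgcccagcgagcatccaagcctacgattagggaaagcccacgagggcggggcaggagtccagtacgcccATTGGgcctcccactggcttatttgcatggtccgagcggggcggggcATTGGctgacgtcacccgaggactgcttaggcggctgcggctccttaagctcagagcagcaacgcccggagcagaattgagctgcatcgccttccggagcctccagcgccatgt

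Elovl6, the elongase that converts palmitate to stearate, was the other member called in the liver. Its cluster (7199114) read 11.27, 11.61, 11.40 and 12.09 in lactating liver pools 1 to 4, against 9.23, 9.69, 10.21 and 10.29 in control liver pools 1 to 4. The lactating and control pools did not overlap, with lactating pool 4 the highest and control pool 1 the lowest. The difference was 1.74 ± 0.21 (adjusted p = 7.43e-06), and the gene was called under each of the 16 alternative fits, with adjusted p up to 0.0443. That standard error uses the spread over all tissues and does not measure the hepatic spread alone. The SD among liver pools was 0.36 in lactating and 0.49 in control rats, against 0.14 to 0.42 in the intestinal groups.

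Elovl6 is the member whose tissue order changed. In lactating rats the liver (11.59 ± 0.36, SD, n = 4) stood above the duodenum (10.49 ± 0.20), with a difference of 1.11 ± 0.20 (adjusted p = 2.47e-05). In control rats the duodenum (10.31 ± 0.18) came first and the liver (9.86 ± 0.49) next, and the 2 were not shown to differ (liver minus duodenum, -0.45 ± 0.20, adjusted p = 0.0707, and 0.027 with pools paired). Jejunum and ileum followed in both states.

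The intestinal differences of Elovl6 were all positive in sign and smaller. In the ileum the gene read 8.47, 8.15, 8.2 and 9.06 in lactating pools, against 7.94, 7.64, 7.46 and 8.38 in control pools 1 to 4. The groups overlapped, since control pool 4 lay above lactating pools 2 and 3, while each lactating pool lay above the control pool of its own number. The ileal difference was 0.62 ± 0.21 (adjusted p = 0.196, and 0.0281 with pools paired). It was 0.48 ± 0.21 in the jejunum (adjusted p = 0.393) and 0.18 ± 0.21 in the duodenum (adjusted p = 0.9).

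Elovl5, which elongates polyunsaturated fatty acids, was the 1 member with a negative hepatic value. Its levels were 11.04, 11.56, 11.06 and 11.49 in lactating liver, against 11.77, 11.87, 11.72 and 11.89 in control liver. All lactating pools lay below all control pools, and the spread was wider among lactating (SD 0.273) than among control pools (SD 0.0803). The difference of -0.52 ± 0.15 missed the threshold (adjusted p = 0.0626) and was called with pools paired (adjusted p = 0.012). In the jejunum Elovl5 read 6.99 to 7.20 in lactating and 7.25 to 7.53 in control pools, again without overlap, with a difference of -0.28 ± 0.15 (adjusted p = 0.481). Its differences in the duodenum and ileum were 0.02 and 0.05.

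**Figure D2:**
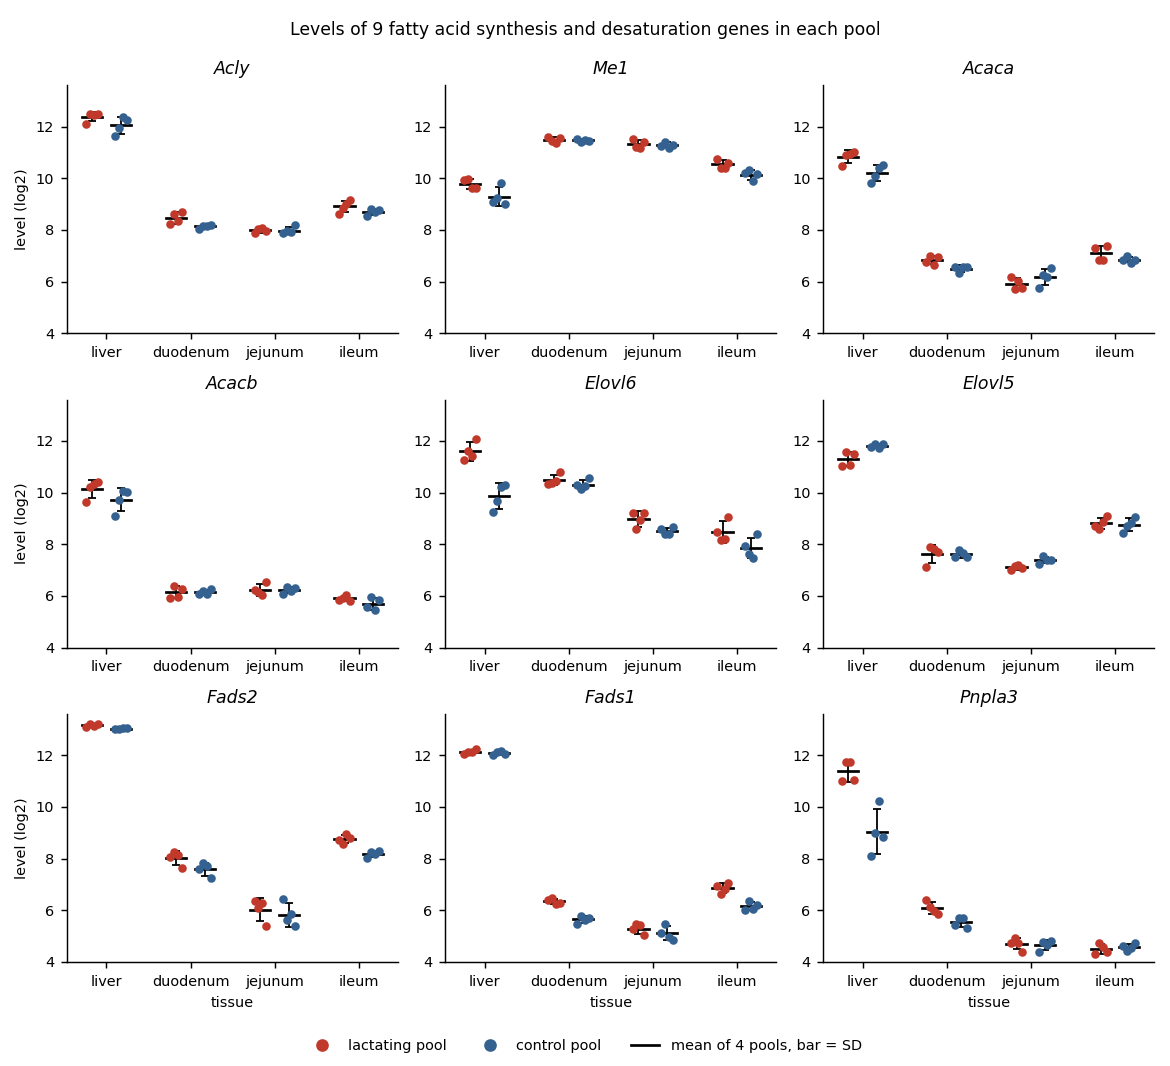
Level (log2, vertical axis) of each member in the 4 pools of lactating (red, left) and control (blue, right) rats in each tissue, with the mean and SD as black lines. Elovl6 and Pnpla3 separate in the liver and Fads1 in the duodenum and ileum, and Me1 is the gene with its lowest levels in the liver.

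Fads1 and Fads2 encode the front-end desaturases that act in turn on essential fatty acids, with Fads1 forming arachidonic acid in the later step. Fads1 (cluster 7039650) read 6.38, 6.48, 6.25 and 6.27 in lactating duodenum, against 5.47, 5.79, 5.64 and 5.71 in control duodenum. In the ileum it read 6.95, 6.62, 6.83 and 7.07 in lactating pools, against 6.0, 6.35, 6.04 and 6.21 in control pools. In both segments every lactating pool lay above every control pool. The differences were 0.69 ± 0.12 in the duodenum (adjusted p = 0.0015) and 0.72 ± 0.12 in the ileum (adjusted p = 0.00103), and they stayed between 0.63 and 0.80 when each pool was left out in turn. Fits to the arrays of 1 segment alone gave adjusted p = 0.0517 in the duodenum and 0.0867 in the ileum.

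The jejunum had the lowest Fads1 levels, 5.29 ± 0.20 in lactating and 5.10 ± 0.27 in control pools (SD, n = 4 each), with overlapping pools and a difference of 0.19 ± 0.12 (adjusted p = 0.591). That value was not shown to differ from the one in the ileum (difference of the 2 effects, jejunum minus ileum, -0.53 ± 0.16, adjusted p = 0.254) or in the duodenum (duodenum minus jejunum, 0.50 ± 0.16, adjusted p = 0.323). The liver had far higher levels, 12.13 ± 0.09 in lactating and 12.10 ± 0.08 in control pools, and a difference of 0.03 ± 0.12 with a 95% interval of -0.22 to 0.28 (adjusted p = 0.961).

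The Fads1 start region is given because this gene was called in 2 segments. It covers chr1:216252442-216252741 on the + strand of GRCr8, with the same window and source as for Pnpla3, and the capitals mark its single CCAAT match.
Fads1: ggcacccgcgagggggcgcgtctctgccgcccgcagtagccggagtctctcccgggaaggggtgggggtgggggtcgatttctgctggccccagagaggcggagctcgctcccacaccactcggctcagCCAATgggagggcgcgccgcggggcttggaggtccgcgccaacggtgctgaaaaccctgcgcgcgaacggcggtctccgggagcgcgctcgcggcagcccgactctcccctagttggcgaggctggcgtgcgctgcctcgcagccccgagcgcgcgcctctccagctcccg

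Fads2, the desaturase of the first step, had no call. In the ileum it read 8.71, 8.57, 8.95 and 8.81 in lactating pools, against 8.03, 8.25, 8.17 and 8.29 in control pools. Those pools did not overlap, and the difference was 0.57 ± 0.19 (adjusted p = 0.167). The duodenal pools did overlap (7.63 to 8.27 in lactating and 7.23 to 7.81 in control rats, difference 0.43 ± 0.19, adjusted p = 0.489). Hepatic pools were apart by a narrow margin, at 13.16 ± 0.05 in lactating and 13.03 ± 0.03 in control liver (SD, n = 4 each). The hepatic difference was 0.13 ± 0.19 (adjusted p = 0.873). Its standard error and p use the spread over all tissues, and jejunal SDs were 0.44 in lactating and 0.46 in control pools. They do not measure the hepatic spread alone. Fads1 and Fads2 shared 1 order of tissues in both states, liver, ileum, duodenum, jejunum, and all neighbours in it differed.

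Acly, the cytosolic enzyme that splits citrate into acetyl-CoA, read 12.11, 12.48, 12.45 and 12.49 in lactating liver, against 11.64, 11.93, 12.38 and 12.26 in control liver. Lactating pool 1 lay below control pools 3 and 4, so the groups overlapped. The difference of 0.33 ± 0.13 was not called (adjusted p = 0.25) and passed with pools paired (adjusted p = 0.0451). In the duodenum Acly read 8.21 to 8.70 in lactating and 8.04 to 8.19 in control pools, without overlap, with a difference of 0.34 ± 0.13 (adjusted p = 0.371). Its values in jejunum and ileum were 0.02 and 0.22.

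Me1, the cytosolic malic enzyme that supplies NADPH, had a tissue order unlike the rest. It was highest in the duodenum (11.49 ± 0.09 in lactating and 11.46 ± 0.05 in control pools, SD, n = 4 each) and lowest in the liver (9.78 ± 0.20 in lactating and 9.28 ± 0.37 in control pools). Duodenum and jejunum were not shown to differ in lactating (adjusted p = 0.427) or control rats (adjusted p = 0.468). In the liver it read 9.94, 9.97, 9.62 and 9.61 in lactating pools, against 9.07, 9.22, 9.82 and 9.0 in control pools. Control pool 3 was the single control pool that lay above lactating pools. The difference was 0.51 ± 0.14 (adjusted p = 0.0542) with it and 0.69 (adjusted p = 0.000526) without it. When each pool was left out in turn the difference lay between 0.415 and 0.69, and 1 of those 8 fits called the gene. With pools paired and all of them kept, the hepatic adjusted p was 0.0329. In the ileum Me1 read 10.39 to 10.75 in lactating and 9.88 to 10.31 in control pools, without overlap, with a difference of 0.41 ± 0.14 (adjusted p = 0.18).

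Acaca, the acetyl-CoA carboxylase that makes malonyl-CoA for synthesis, read 10.46, 10.89, 10.94 and 11.03 in lactating liver, against 9.81, 10.09, 10.41 and 10.50 in control liver. The groups overlapped through lactating pool 1 and control pool 4. The difference of 0.63 ± 0.17 lay just outside the threshold (adjusted p = 0.0515) and inside it with pools paired (adjusted p = 0.0223). When each pool was left out in turn it lay between 0.50 and 0.75, and 2 of those 8 fits called the gene. They were the fits without control pool 4 (0.73, adjusted p = 0.0409) and without lactating pool 1 (0.75, adjusted p = 0.0204). In the jejunum the value had the other sign, -0.26 ± 0.17 (adjusted p = 0.608), and the hepatic effect exceeded the jejunal one by 0.89 ± 0.22 (adjusted p = 0.035, with 1.33% of all clusters called in that contrast). Its duodenal pools were apart, at 6.64 to 7.0 in lactating and 6.32 to 6.58 in control rats (difference 0.33 ± 0.17, adjusted p = 0.585).

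Acacb, the carboxylase at the mitochondrial outer membrane whose malonyl-CoA restrains fatty acid oxidation, had a hepatic difference of 0.40 ± 0.17 (adjusted p = 0.313), with 9.62 to 10.41 in lactating and 9.11 to 10.05 in control pools. Its intestinal values lay between -0.01 and 0.20, and its intestinal levels between 5.46 and 6.53 in all pools.

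Against the mean of the 3 intestinal segments, the liver was the richer tissue for all members but Me1. It was not the highest single tissue for Elovl6 in control rats, where the duodenum came first. In lactating rats 8 of the 9 members were higher in liver than in the mean of the 3 intestinal segments and 1, Me1, was lower, while 46.0% of all clusters were called in that contrast. The 8 differences ran from 2.28 ± 0.16 for Elovl6 (adjusted p = 3.82e-13) to 6.28 ± 0.19 for Pnpla3 (adjusted p = 7.66e-22), and that of Me1 was -1.33 ± 0.10 (adjusted p = 3.5e-12). In control rats 8 were again higher in liver and Me1 lower, with 46.3% of all clusters called, and the 8 differences ran from 0.97 ± 0.16 for Elovl6 (adjusted p = 7.23e-06) to 6.46 ± 0.09 for Fads1 (adjusted p = 2.45e-30). Among the segments, ileum came first for Acaca, Acly, Elovl5, Fads1 and Fads2 in both states, duodenum for Elovl6, Me1 and Pnpla3, and jejunum for Acacb. The first and second segment were not shown to differ for Acaca, Acacb and Me1 in either state.

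Whether the effect of lactation depended on the tissue was tested by the limma F test of the interaction. It called 3 of the 9 members, Pnpla3 (adjusted p = 5.32e-05), Elovl6 (adjusted p = 0.00449) and Fads1 (adjusted p = 0.0123), against 2.05% of all clusters. In the contrast of liver with the mean of the segments, again with 2.05% of all clusters called, the effect was larger in liver by 2.16 ± 0.27 for Pnpla3 (adjusted p = 9.1e-06) and by 1.31 ± 0.23 for Elovl6 (adjusted p = 0.000868). For Fads1 it was smaller in liver, with a difference of -0.50 ± 0.13 (adjusted p = 0.033). The Fads1 value ran from -0.57 to -0.45 when each pool was left out and missed the threshold without any 1 of control pools 1, 3 and 4 and lactating pools 1, 2 and 3 (adjusted p = 0.0585 to 0.16). Its interaction missed the threshold without control pool 1 (adjusted p = 0.0645), control pool 3 (adjusted p = 0.0801) or lactating pool 1 (adjusted p = 0.0951), and without both pools numbered 4 (adjusted p = 0.0595). The other 6 members were not called in either test.

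Averaged over the 4 tissues, the state effect called the same 3 genes, all higher in lactating rats, against 2.51% of all clusters. It was 0.75 ± 0.13 for Elovl6 (adjusted p = 0.00121), 0.72 ± 0.16 for Pnpla3 (adjusted p = 0.0105) and 0.41 ± 0.07 for Fads1 (adjusted p = 0.00199). The Pnpla3 call was lost without control pool 2 (adjusted p = 0.0554), lactating pool 2 (adjusted p = 0.067) or lactating pool 3 (adjusted p = 0.0732), and with clusters limited to a group mean of at least 6 (adjusted p = 0.0581). The mixed model of the study's methods, in which a state effect is judged over 8 pools, called none of the 9 at adjusted p under 0.05 (lowest adjusted p = 0.108) and 6 at an unadjusted p under 0.05, which 11.9% of all clusters passed, while the fit with pools paired called 7 higher and 1 lower against 17.5% of all clusters.

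The other genes of the pathway were taken from 8 lists by role with 100 genes in all, of which 75 had a row. Their median difference was 0.04 in liver, 0.12 in duodenum, 0.05 in jejunum and 0.04 in ileum. In the liver 3 of the 75 were called higher and 3 lower (8.0% of the list and 1.88% of all clusters), and with pools paired 6 were called higher and 4 lower (4.13% of all clusters). Scap, the escort protein that carries SREBP to its activation, rose by 0.98 ± 0.11 (adjusted p = 2.06e-06), with 9.74, 10.39, 10.37 and 10.07 in lactating pools and 8.95, 9.04, 9.37 and 9.30 in control pools. Aacs, which makes acetoacetyl-CoA for cytosolic lipid synthesis, rose by 0.94 ± 0.19 (adjusted p = 0.0037), and Lpin2, a phosphatidate phosphatase of triglyceride synthesis, rose by 0.66 ± 0.12 (adjusted p = 0.00229). The lower ones were Pdk4, the kinase that shuts off pyruvate dehydrogenase (-0.94 ± 0.25, adjusted p = 0.0428), the lipid droplet coat protein Plin2 (-0.69 ± 0.16, adjusted p = 0.0174) and the AMPK subunit Prkab1 (-0.40 ± 0.10, adjusted p = 0.0387). Pdk4 was lower on average in the intestinal segments too, where it was not called without the pairing. It averaged 8.68 in lactating and 9.53 in control duodenum, 9.20 and 9.85 in jejunum, and 5.89 and 6.64 in ileum. Neither of the regulators Srebf1 and Thrsp was called in liver, with values of 0.07 ± 0.16 (adjusted p = 0.929) and 0.04 ± 0.22 (adjusted p = 0.976), and Mlxipl, the gene of ChREBP, had no row. Scd, a stearoyl-CoA desaturase, read 12.33, 12.65, 12.47 and 12.54 in lactating liver, against 11.22, 11.66, 12.09 and 12.13 in control liver. These pools did not overlap, and the difference of 0.72 ± 0.36 was not called (adjusted p = 0.432). Its standard error uses the spread over all tissues. The SD of Scd was 0.14 in lactating liver, 0.43 in control liver and 0.98 in control jejunum.

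In the intestine the called genes of these lists included both stearoyl-CoA desaturases. Scd2 read 9.05, 8.67, 8.96 and 9.19 in lactating duodenum, against 7.04, 7.32, 7.53 and 7.68 in control duodenum, a difference of 1.57 ± 0.32 (adjusted p = 0.00928). In the ileum Scd2 read 10.55, 10.00, 10.74 and 11.25 in lactating pools, against 7.93, 8.61, 9.14 and 9.22 in control pools, a difference of 1.91 ± 0.32 (adjusted p = 0.000943). Scd2 thus rose, without overlap of pools, in the 2 segments in which Fads1 was called. Insig1, which retains the SREBP escort complex in the endoplasmic reticulum, rose in the duodenum by 1.26 ± 0.16 (adjusted p = 1.61e-05). Its lactating pools also lay above the control pools in the jejunum (11.02 to 11.60 against 10.52 to 10.84) and ileum (11.82 to 12.27 against 11.27 to 11.74). It was not called in either without the pairing. Scd2 and Insig1 were the 2 called list genes of the duodenum (2.67% of the list and 0.643% of all clusters), and Scd2 was the 1 of the ileum (1.33% of the list and 1.28% of all clusters). With pools paired, 8 list genes were called higher and 1 lower in the duodenum (1.86% of all clusters), and 5 higher and 3 lower in the ileum (3.78%).

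The jejunum, without any called member, had 2 list genes higher and 2 lower (5.33% of the list and 0.808% of all clusters), and 3 higher and 2 lower with pools paired (2.1% of all clusters). Srebf1, the gene of a SREBP, rose by 0.71 ± 0.16 (adjusted p = 0.0263), and Agpat3, an acyltransferase of glycerolipid synthesis, rose by 0.87 ± 0.14 (adjusted p = 0.000655). Scd fell by 2.08 ± 0.36 on the log2 scale (adjusted p = 0.00209), with 3.54, 4.75, 5.22 and 4.59 in lactating pools and 5.46, 6.47, 6.66 and 7.84 in control pools. Thrsp, a nuclear protein linked to lipogenesis, fell by 1.27 ± 0.22 (adjusted p = 0.00209), with 5.60, 5.98, 6.23 and 5.89 in lactating pools and 6.47, 7.48, 6.93 and 7.91 in control pools. Over all 4 tissues no gene of NADPH supply (4 with a row), mitochondrial fatty acid synthesis (5) or the acyl-CoA synthetases (6) was called without the pairing. With pools paired, Taldo1 of the pentose phosphate pathway was called higher in the ileum (0.63 ± 0.23, adjusted p = 0.206, and 0.00664 with pools paired). Ndufab1, the mitochondrial acyl carrier protein, was called in the duodenum (0.47 ± 0.17, adjusted p = 0.334, and 0.00608 with pools paired). Of the synthetases, Acsl4 was then called in the duodenum and Acsl3, Acsl4 and Acsbg1 in the ileum, with paired adjusted p between 0.0275 and 0.0477.

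**Figure D3:**
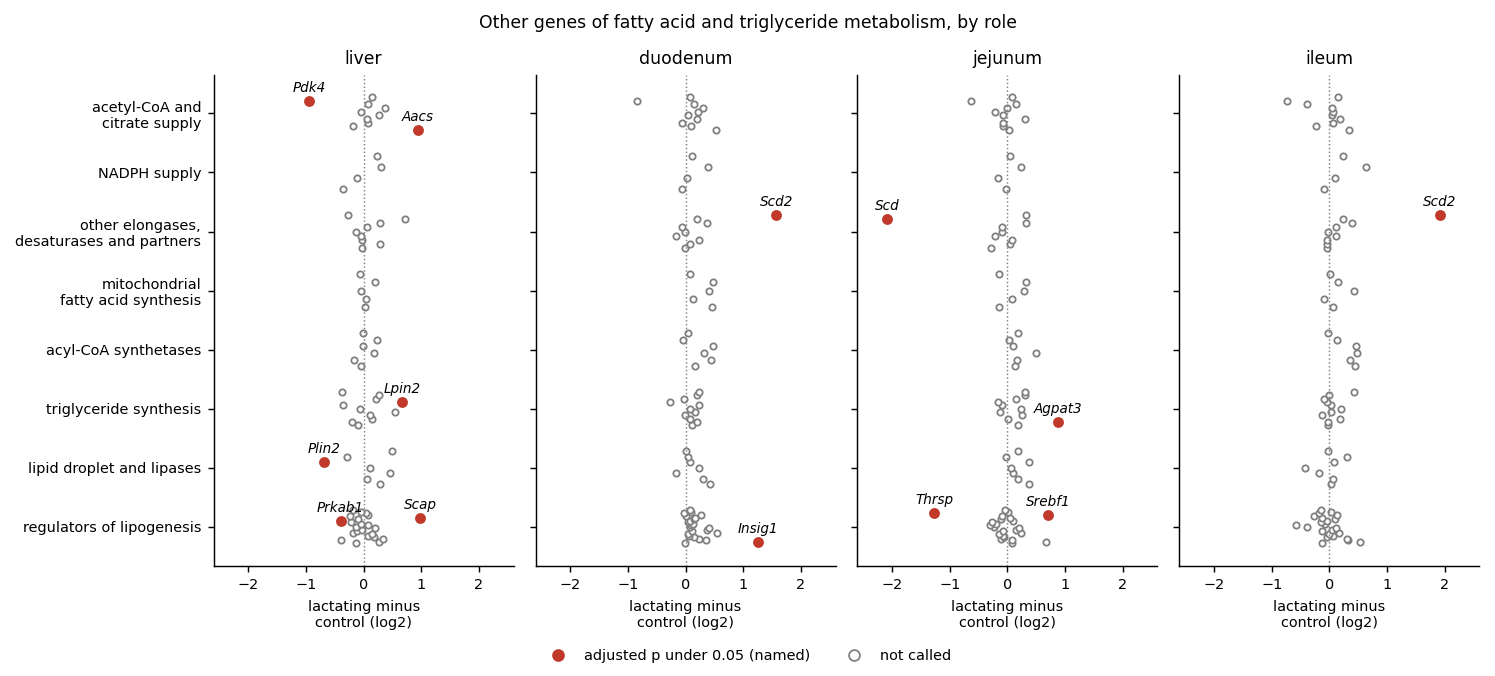
Difference between lactating and control pools (log2, horizontal axis) of the 75 other pathway genes, in rows by role and in panels by tissue, with called genes filled and named. Most genes lie near 0, and Scd2 stands to the right in the duodenum (1.57) and ileum (1.91) while Scd stands to the left in the jejunum (-2.08).

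Markers of other cell types moved with the state in 2 of the segments. All 9 pancreatic acinar markers were called lower in lactating duodenum, with a median difference of -4.41, and their mean level was 6.20, 9.48, 7.03 and 5.27 in lactating pools, against 11.57, 10.53, 11.83 and 11.21 in control pools 1 to 4. Their part in the duodenal Fads1 difference was not tested. Fads1 in the duodenum read 6.38, 6.48, 6.25 and 6.27 in lactating pools 1 to 4, against 5.47, 5.79, 5.64 and 5.71 in control pools 1 to 4. In the ileum the acinar markers lay between 4.26 and 4.65 in lactating and between 4.26 and 4.93 in control pools, and none was called.

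Of the 7 adipocyte markers with a row, Adipoq and Lpl were called lower in lactating jejunum, by differences of -2.94 ± 0.27 (adjusted p = 1.51e-07) and -1.28 ± 0.28 (adjusted p = 0.0174). The other 5 were not called there. Cidec was higher (10.88 in lactating and 10.61 in control pools on average), and Plin1, Retn, Lep and Fabp4 were lower. The mean of the list was 5.22 to 5.66 in lactating and 6.18 to 6.30 in control jejunum, and Adipoq itself read 2.93, 3.64, 3.63 and 3.43 in lactating pools, against 5.79, 6.41, 6.19 and 7.0 in control pools. Within each state the jejunal pool with the lowest Adipoq was also the lowest in Scd and in Thrsp, and the control pool highest in Adipoq was highest in both. Among lactating pools, Adipoq was highest in pool 2, and Scd and Thrsp were highest in pool 3. The lactating Adipoq values lay under the array medians of 4.68 to 4.87, where the order of pools is hard to measure. The part of these markers in the lower jejunal Scd and Thrsp, and in the negative jejunal values of Elovl5 and Acaca, was not tested. Of 8 hepatocyte markers, Ttr was called higher (0.74 ± 0.17, adjusted p = 0.0273) and Alb lower (-0.53 ± 0.12, adjusted p = 0.0273) in lactating jejunum, both at levels far under those of liver. No marker of the adipocyte, acinar, hepatocyte, enterocyte, T cell or smooth muscle lists was called in the liver or the ileum without the pairing. Some uncalled markers still had hepatic pools apart. Cpa1 was lower (5.79 to 6.48 in lactating and 7.62 to 7.96 in control liver), and its SD was 2.01 in lactating duodenum. Apoa2 was higher (13.29 to 13.52 in lactating and 12.97 to 13.12 in control liver). With pools paired, 1 enterocyte marker, the lactase gene Lct, was called lower in the ileum (7.28 in lactating and 9.04 in control pools on average, adjusted p = 0.107, and 0.0352 with pools paired), with overlapping pools. The smooth muscle gene Myh11 was then called lower in the duodenum (6.80 in lactating and 7.25 in control pools, adjusted p = 0.0768, and 0.0212 with pools paired). Their part in the Fads1 differences of those segments was not tested.

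**Figure D4:**
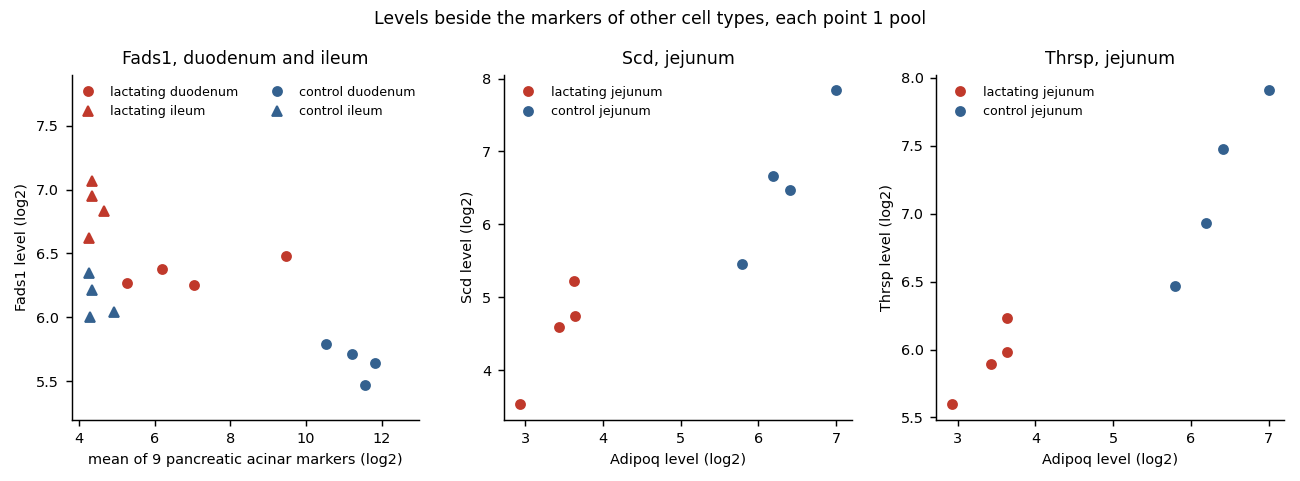
Left, level of Fads1 (log2) against the mean level of 9 pancreatic acinar markers (log2) in the duodenum (circles) and ileum (triangles), and centre and right, levels of Scd and Thrsp (log2) against Adipoq (log2) in the jejunum, with each point 1 pool, lactating in red and control in blue. The acinar markers are at 4.26 to 4.93 in all ileal pools. Jejunal Scd, Thrsp and Adipoq are all higher in control pools. The part of the markers in these levels was not tested.

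The genes most like each called member were found by Pearson's r over the 32 arrays after subtraction of each tissue's mean, a description over arrays that share rats between tissues. For Pnpla3 they were A2m (r = 0.91), Scap (r = 0.91) and Acmsd (r = 0.89), whose own hepatic differences were 3.92, 0.98 and 2.11. For Elovl6 they were Sec14l4, Plekhd1 and A2m, each with r = 0.78. Those of Fads1 were Nsdhl (r = 0.89) and Cyp51 (r = 0.86), both enzymes of cholesterol synthesis, and Acsl4 (r = 0.82), an acyl-CoA synthetase with a preference for arachidonic acid. Their differences were 0.76, 1.10 and 0.48 in the duodenum and 0.60, 0.90 and 0.46 in the ileum.

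RefSeq start regions were at hand for 7 of the 10 genes (Acacb, Acly, Elovl5, Fads1, Fads2, Me1 and Pnpla3), and both strands were searched for motifs of known lipogenic regulators. The CCAAT box of NF-Y, a factor that acts beside SREBP at many lipid genes, had a match in 5 of the 7 (all but Fads2 and Me1), as it did in 37.5% of the 33469 windows of this length in the table. Of the 3 members called in any tissue, the start regions of Pnpla3 and Fads1 held it, with 2 matches and 1 match. Elovl5 held the E-box CACGTG, found in 6.42% of windows. No window of the 7 held the sterol regulatory element searched as TCACNCCAC (1.12% of windows), the carbohydrate response element of 2 E-boxes with 5 bases between (0.00299%) or the LXR element, AGGTCA repeated with 4 bases between (0.00598%). A match is a description of the letters only.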

How the data were processed

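Gene expression was measured on 32 Affymetrix Rat Exon 1.0 ST arrays, 4 pools in each of 8 groups. Its deposited values are log2 summaries, which the authors computed with RMA in Affymetrix Expression Console (background correction, quantile normalization, summary over all exons of the extended gene set), with rn4 annotation. The versions of these programs were not given in the sources used here. Values ran from 0.82 to 14.41 and were used as deposited, and no array or cluster was removed. Precision is limited by the number of arrays and by signal over background.

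A cluster was named where the probe table gives it exactly 1 gene symbol (13327 clusters), the others having several (620) or none (5487). For genes with more than 1 cluster the highest mean over the arrays was kept. The model of limma 3.58.1 (run in R 4.3.3 with statmod 1.5.0) had 8 group means and the pool as random block, with a consensus correlation of 0.163 and 3.24 prior degrees of freedom for the variances. Benjamini-Hochberg adjustment ran over all 19434 clusters. Nothing says that pools were made or hybridised on separate days, so no batch could be fitted. Python 3.11.15 (pandas 2.3.3, numpy 2.4.6, matplotlib 3.10.9) was used for tables and plots. The fit was also run on simulated data with 1 spread per gene over all tissues and no pairing by pool number. That run does not cover a spread that differs between tissues or the pairing.

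Replicate numbers come from the labels. Deviations from the group means correlated at 0.1052 to 0.555 between lactating and control pools of the same number. Between other pools they correlated at -0.347 to 0.1045. Every same-number pair exceeded 0.1, but so did lactating pool 2 with control pool 3, so this cut does not separate them. A fit with the number as an added term was made as an alternative, and calls found by it alone hold only if the numbers pair the pools. The other alternatives were no pool block, the study's mixed model, the arrays of 1 tissue alone, a group mean of at least 6 (8587 clusters), quantile normalization within tissue, array weights, the study's thresholds on unadjusted p, and fits without 1 pool or without both pools numbered 4. The study's detection filter, which needs exon level values, was not used here.

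The members and lists were chosen with earlier results of these data known. Named genes are all members, called genes of the pathway lists (at most 4 a list, by size), the regulators Srebf1, Mlxipl, Thrsp and Scap, the 3 genes most like each called member, and markers beside a result. Start regions are RefSeq windows on GRCr8, and no array coordinates were used.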

Additional observations from a re-analysis of the deposited data

Results flagged for a closer look

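The effect of lactation differed between tissues by limma's F test for 3 of the 9 members, Pnpla3 (adjusted p = 5.32e-05), Elovl6 (adjusted p = 0.00449) and Fads1 (adjusted p = 0.0123). Pnpla3 and Elovl6 had their largest values in the liver (2.34 and 1.74) and Fads1 its largest in the ileum (0.72).

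In 2 of the 72 groups of 4 pools, a single pool lay far from the others, where chance gives such a pool in about 5% of groups. Acly read 12.11 in 1 lactating liver pool and 12.45 to 12.49 in the other lactating liver pools. Acaca read 6.32 in 1 control duodenum pool and 6.56 to 6.58 in the other control duodenum pools.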

How the results depend on the processing

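The count of members called higher in the liver, 2 in the fit reported, was 5 with the replicate number as a block, 4 without the pool block, 1 with the liver arrays alone, 4 with array weights and 4 at the study's thresholds. The count called lower there, 0 in the fit reported, was 1 with the replicate block, 1 after quantile normalization within tissue, 1 at the study's thresholds and 0 to 1 when each pool was left out. In the duodenum the count of 1 higher was 0 with the arrays of that tissue alone. In the ileum the count of 1 higher was 2 with the replicate block, 0 with the arrays of that tissue alone and 4 at the study's thresholds. The state effect, with 3 higher and 0 lower, gave 7 higher and 1 lower with the replicate block, 6 higher without the pool block and 0 higher with the mixed model. The 1 member with a lower effect in liver than in intestine became 0 without the pool block and without the pools numbered 4, and 0 to 1 when each pool was left out. Fits to 1 tissue have fewer arrays and estimate the spread from that tissue alone. For Pnpla3 in liver the standard error was 0.40 in the fit to liver arrays and 0.26 in the fit reported. The cause of these changes was not tested for any setting. With the replicate block no other call of a member between lactating and control pools of a tissue changed, and the 3 members called in the interaction kept their calls.

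Among differences within a tissue, signs changed only for ones that were not called and lay near 0 (log2). Without the pools numbered 4, Fads1 in liver became -0.0217, Elovl5 in duodenum -0.0392, Me1 in jejunum -0.00227 and Pnpla3 in ileum 0.0166. After quantile normalization within tissue, Elovl5 in duodenum became -0.0778, Me1 in duodenum -0.0493 and Acacb in jejunum 0.0408, and with array weights Elovl5 in ileum became -0.0107. When each pool was left out, the ranges that crossed 0 were, in liver, -0.00596 to 0.066 for Fads1, in duodenum -0.0881 to 0.0663 for Acacb and -0.0716 to 0.192 for Elovl5, in jejunum -0.109 to 0.062 for Acacb, -0.0147 to 0.0943 for Acly, -0.0314 to 0.085 for Me1 and -0.046 to 0.146 for Pnpla3, and in ileum -0.0515 to 0.149 for Elovl5. No member had a further cluster, so the second highest cluster could not be tried. Labels state neither that pool numbers mark related rats nor whether pools were hybridised together. Pnpla3 in jejunum and ileum lay at the array median, where changes are hard to measure.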
